A study of Mus musculus with 6 samples.

Results

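The mitochondrial carrier family was followed in C2C12 myotubes after inhibition of the microRNA miR-382-5p. Members were the genes whose symbol in the platform annotation starts with Slc25a, together with Ucp1, Ucp2 and Ucp3, each read from the probe set with the highest mean over the 6 arrays among those that name 1 gene. This gave 48 members of 18820 genes. Ucp2 is not analysed here.

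Carriers of this family are small proteins of the inner mitochondrial membrane that move metabolites, nucleotides, phosphate, vitamins and coenzymes between the cytosol and the matrix. Most work as exchangers that alternate between openings to either side. In muscle the ADP/ATP carriers and the phosphate carrier feed ATP synthase, the aspartate/glutamate and oxoglutarate carriers serve the malate-aspartate shuttle, and the carnitine/acylcarnitine carrier brings fatty acids to oxidation. Uncoupling proteins belong to the same family. UCP1 lets protons leak in brown fat, and UCP3 is the form typical of skeletal muscle.

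C2C12 is an immortalized mouse myoblast line, and all 6 samples come from that line. Every culture was differentiated in medium with 2% horse serum, transfected at day 6 with a locked nucleic acid (LNA) oligonucleotide at 50 nM, and harvested as myotubes at day 7, 24 h after transfection. The 3 silenced arrays come from cultures given a silencer of miRNA-382-5p and the 3 control arrays from cultures given Negative Control A. Each group carries replicate numbers 1 to 3, and the labels leave unsaid if samples within a group are independent cultures, so p-values here reflect only the scatter of these samples and it may be technical. The inhibited microRNA is shown because it defines the silenced group, with its seed (bases 2 to 8) in capitals, from RefSeq, build GRCm38.p6, chromosome 12, plus strand, chr12:109733781-109733802.
mmu-miR-382-5p: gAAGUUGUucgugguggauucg

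Values are log2 expression levels per array, deposited after RMA, a method that removes background, brings all arrays to 1 distribution and combines each set's probes. Mature microRNAs are outside what this kind of array reads. Mir382, the precursor gene, read 2.18 ± 0.17 in silenced and 1.81 ± 0.15 in control arrays (SD, n = 3 each), below the filter on dim genes, and does not check the inhibition. The 6 arrays correlated pairwise between 0.985 and 0.995 over the tested genes. Along the first principal component (46.8% of the variance) both arrays numbered 1 stood apart, at -19.3 and -15.0, from the other 4, at 7.29 to 9.96. All 12 myotube markers passed the filter, and their summed level, as log2, was 14.78 to 14.92 in silenced and 14.69 to 14.72 in control arrays. Of the fibroblast markers 6 of 7 passed, with sums of 12.82 to 13.16 in both groups, and of the undifferentiated myoblast markers 5 of 6 passed, with sums of 11.02 to 11.19 in silenced and 11.03 to 11.23 in control arrays. No marker of adipocytes (0 of 7) or hepatocytes (0 of 5) passed, and 1 of 4 did for macrophages (Cd68) and 1 of 4 for male germ cells (Tnp1). The summed level was 5.80 to 6.04 in silenced and 5.75 to 5.84 in control arrays for the adipocyte list, and 4.92 to 5.15 and 4.94 to 5.31 in the same order for the hepatocyte list. It was 5.82 to 6.00 in silenced and 5.38 to 5.91 in control arrays for the macrophage list, and 5.13 to 5.25 and 5.06 to 5.24 in the same order for the germ cell list. In these bulk samples, fewer cells of a type and less RNA per cell cannot be told apart.

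Of the 48 carriers, 37 had a mean over the 6 arrays above the 40th percentile of genes, a log2 level of 3.87, and were tested. The 11 carriers below it lay between 1.91 and 4.01 in single arrays, and among them were the brown fat protein gene Ucp1 and the testis ADP/ATP carrier gene Slc25a31. Levels of different genes come from different probes and are not set against each other here. The range between the highest and lowest of the 6 arrays had a median of 0.351 over the 37 tested carriers and 0.367 over all 11292 tested genes. It ran from 0.133 for Slc25a46, whose product sits in the outer membrane, to 1.07 for Ucp3.

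The first comparison, silenced against control, asked whether inhibition of miR-382-5p changed the transcripts of these carriers. No tested carrier passed limma's test over all 11292 genes (0 of 37, smallest adjusted p = 0.871), where 0% of all tested genes were called. At an unadjusted p under 0.05 there was 1 carrier, Slc25a26, against 4.80% of all tested genes, and 2 in the fit blocked on replicate number, Slc25a26 and Slc25a32, against 10.3%. Of the 37 carriers, 17 read higher and 20 lower on average in the silenced group, beside 47.3% of all tested genes with a lower mean. The median difference, silenced minus control, was -0.0022 over the carriers and 0.0089 over all tested genes, and the median size of the difference was 0.067 over the carriers and 0.090 over all tested genes.

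The groups of arrays overlapped for 35 of the tested carriers. They lay apart for Slc25a12, where the 3 silenced arrays were above the 3 control arrays, and for Slc25a26, where they were below, against 6.94% of all tested genes in the first and 4.87% in the second direction. The difference within same-numbered pairs had the same sign in all 3 pairs for 12 carriers, 7 higher (19.7% of all tested genes) and 5 lower (15.8%) in silenced arrays, where 35.6% of all tested genes did so in either direction. The median of the carriers' differences was 0.019 within number 1, -0.034 within number 2 and 0.028 within number 3. The intervals show what 6 arrays could resolve: the 95% confidence interval of the difference stayed within 0.5 on either side of 0 for 32 of the 37 carriers and within 0.3 for 12. Blocked on replicate number, these counts were 34 and 20. The plot of differences by role shows every tested carrier.

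**Figure D1:**
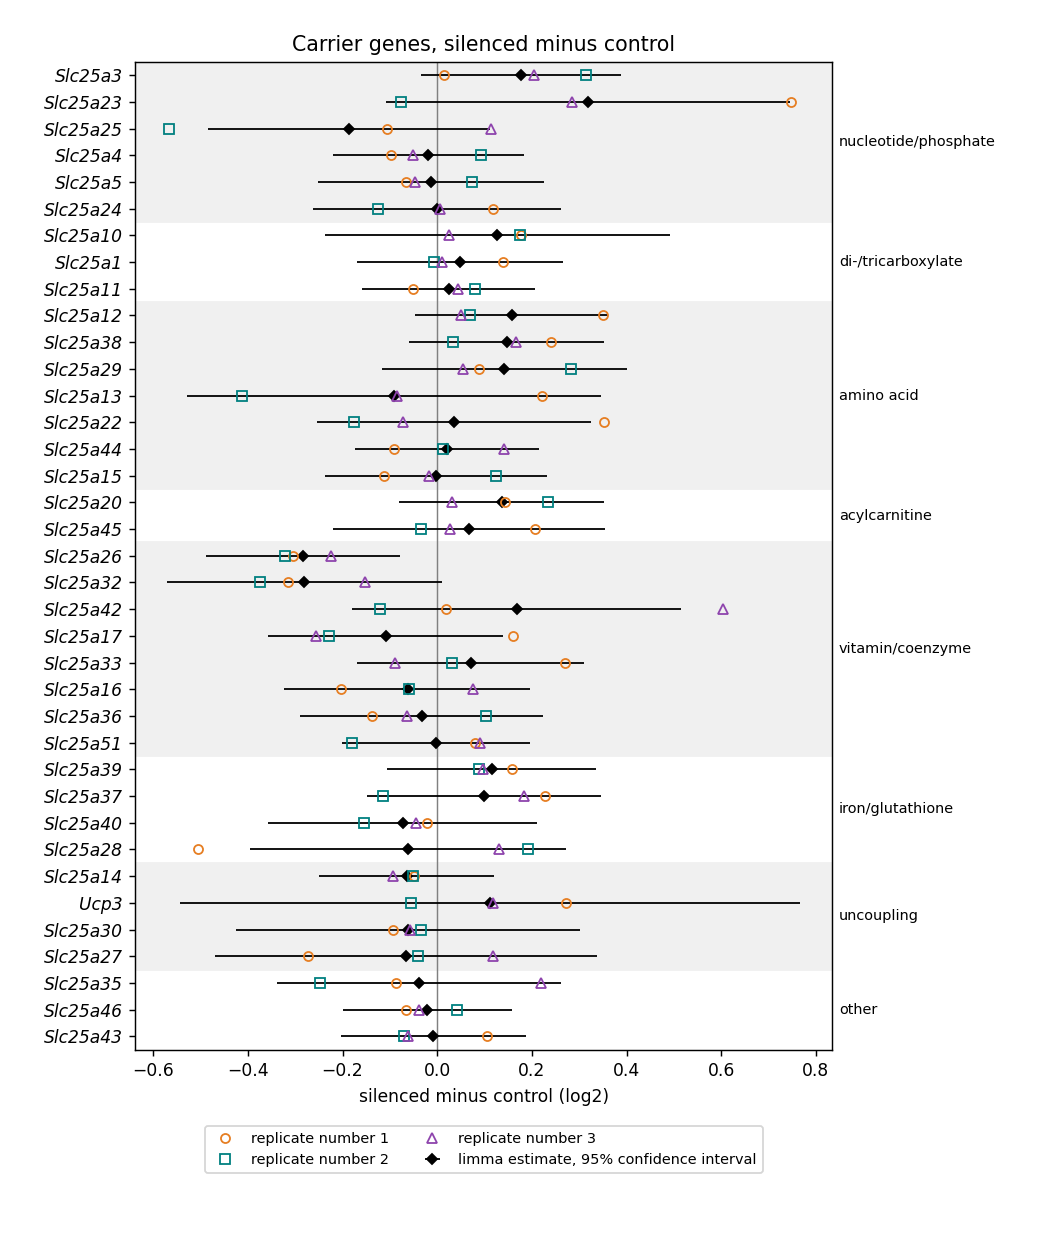
Difference between silenced and control arrays (log2, x axis) for the 37 tested carrier genes, grouped by role. Black diamonds are limma estimates with 95% confidence intervals, and open symbols are the differences within same-numbered pairs of arrays; Slc25a26 is the carrier whose interval, -0.49 to -0.08, leaves out 0.

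The second comparison asked how far the carriers followed the replicate number, which the labels give in both groups. One carrier, the muscle uncoupling protein gene Ucp3, differed between replicate numbers (limma F-test with the group as covariate, adjusted p = 0.0292), and it read lower in both arrays numbered 1. Ucp3 passed the filter through numbers 2 and 3, since both arrays numbered 1 read below the filter level of 3.87, and it was not called with no filter on dim genes (adjusted p = 0.0733). Of all tested genes 3.12% were called by this test. At an unadjusted p under 0.05 the test gave 6 carriers, Ucp3, Slc25a30, Slc25a10, Slc25a27, Slc25a40 and Slc25a32, against 20.4% of all tested genes. Both arrays numbered 1 lay apart from the other 4 for 15 carriers, 9 lower and 6 higher, against 31.3% of all tested genes (15.3% lower and 16.0% higher). Sizes below are the mean of the arrays numbered 1 minus the mean of those numbered 2 and 3, a contrast chosen with earlier results of these arrays known and therefore given with its SE and no p.

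The sum of squares of each gene over the 6 arrays was split into the part between groups (1 degree of freedom), the part between replicate numbers (2 degrees of freedom) and the rest. The median share between groups was 6.78% over the carriers and 14.2% over all tested genes. Replicate number held a median share of 58.8% over the carriers and 49.6% over all tested genes. For 28 of the 37 carriers the share of the number was above that of the group, as it was for 72.5% of all tested genes. Shares with more degrees of freedom are larger without any difference, and these values are a description.

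**Figure D2:**
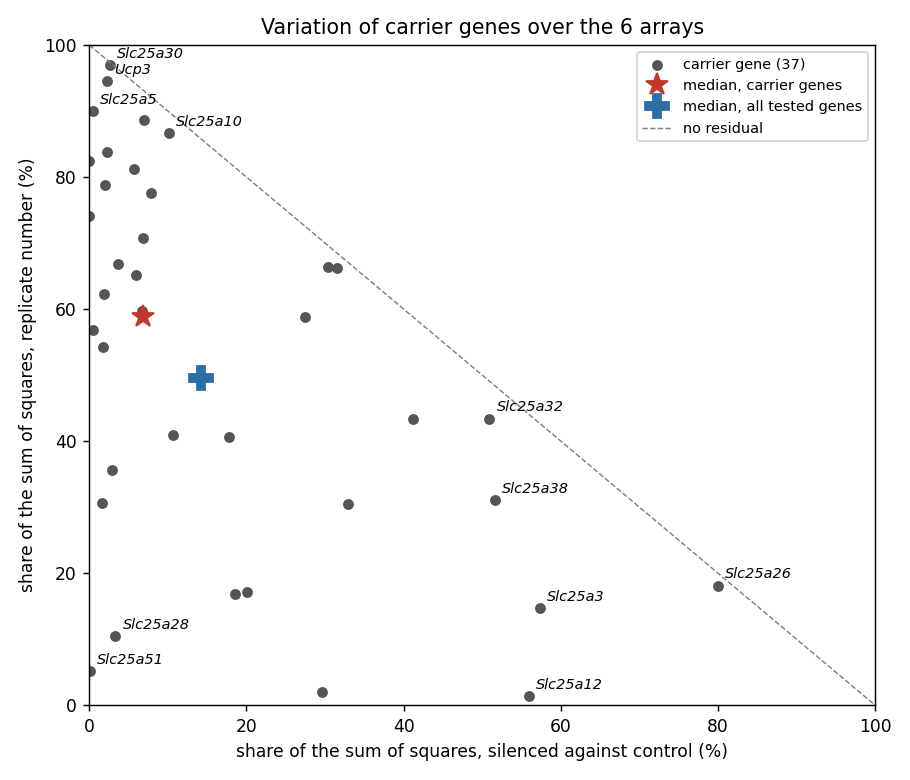
Share of each tested carrier gene's sum of squares over the 6 arrays that lies between silenced and control arrays (x axis, %) and between replicate numbers (y axis, %). The star and the cross mark the medians over carriers (6.78% and 58.8%) and over all tested genes (14.2% and 49.6%); Ucp3 and Slc25a30 lie at the upper left and Slc25a26 at the lower right.

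Carriers of adenine nucleotides and phosphate hold 9 members, of which 6 passed the filter and 0 were called in either comparison. Slc25a4 encodes ANT1, the ADP/ATP carrier of heart and skeletal muscle. It read 10.84, 10.82 and 10.75 in silenced arrays 1, 2 and 3, against 10.94, 10.73 and 10.80 in control arrays 1, 2 and 3. The groups overlapped, and the difference of -0.019 had a 95% confidence interval of -0.22 to 0.18 (limma, adjusted p = 0.980). Slc25a5, the ADP/ATP carrier ANT2 of proliferating and many other cells, read 11.53, 11.38 and 11.36 in silenced arrays, against 11.60, 11.31 and 11.41 in control arrays. Both arrays numbered 1 were its highest, by 0.20 ± 0.08 (SE), with no call (F-test, adjusted p = 0.351).

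Slc25a5 has 3 probe sets that name it alone, and the RefSeq table also lists the pseudogenes Slc25a5-ps and Gm5560, the second with Slc25a5 among its synonyms. Its signal may therefore come from more than 1 locus. The 3 probe sets differed between silenced and control arrays by -0.013, -0.041 and -0.055, and all 3 were higher in the arrays numbered 1, by 0.20, 0.17 and 0.18. Slc25a31, the testis ADP/ATP carrier ANT4, read 2.05, 2.25 and 1.91 in silenced arrays, against 2.38, 2.39 and 2.32 in control arrays, below the filter and not tested. All 3 of its silenced arrays lay below its control arrays.

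The phosphate carrier gene Slc25a3, whose product brings in phosphate for ATP synthesis, had the smallest p of this role. It read 10.32, 10.53 and 10.53 in silenced arrays, against 10.31, 10.21 and 10.32 in control arrays. Silenced arrays 2 and 3 were the high ones, array 1 lay within the control values, and the difference of 0.18 ± 0.09 (SE) was not called (limma, adjusted p = 0.871). By pair it was 0.014, 0.32 and 0.20 for numbers 1, 2 and 3.

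The calcium-regulated ATP-Mg/phosphate carriers adjust the adenine nucleotide pool of the matrix. Slc25a23 read 5.36, 5.32 and 5.36 in silenced arrays, against 4.61, 5.40 and 5.07 in control arrays. Its difference of 0.32 ± 0.18 (SE) was the largest of the tested carriers, and it came with a low value in control replicate 1 and an SD of 0.39 in control arrays, against 0.02 in silenced arrays. Without control replicate 1 the difference was 0.11, and without control replicate 2 it was 0.50. It was called by replicate number without silenced replicate 1 (F-test, adjusted p = 0.029), with 1 array left for number 1. Slc25a25 read 5.58, 5.38 and 5.66 in silenced arrays, against 5.69, 5.95 and 5.55 in control arrays, and its pairs went in both directions. Slc25a24 differed by -0.00039 (95% confidence interval -0.26 to 0.26) and read highest in the arrays numbered 1, with 9.51 in the silenced and 9.39 in the control array, against 9.20 to 9.32 in the other 4. Slc25a41 and Slc25a54, relatives of these carriers, lay below the filter.

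**Figure D3:**
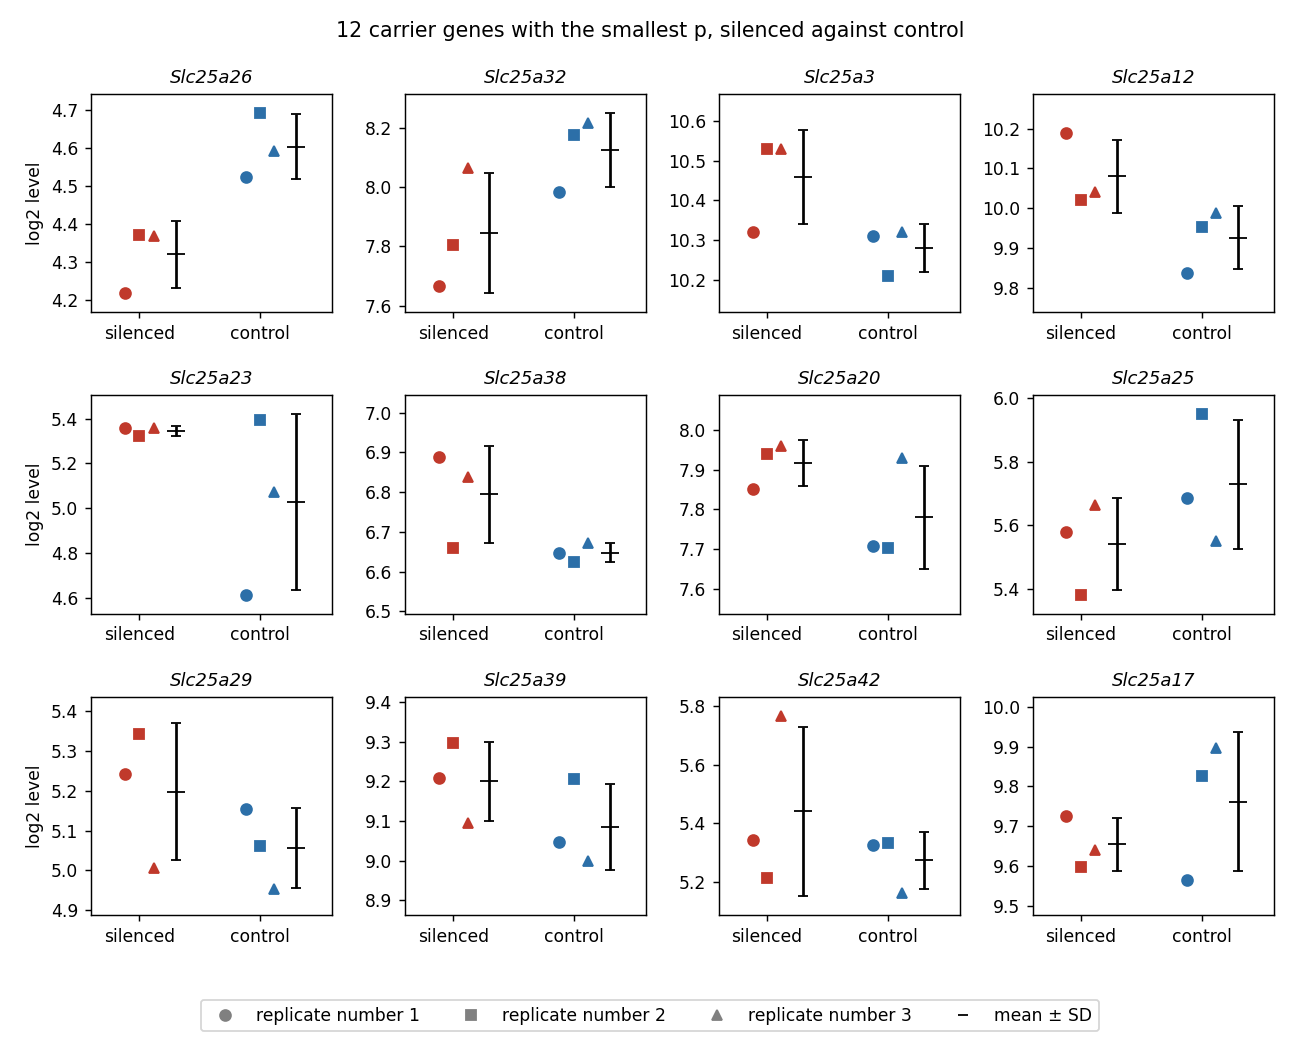
Log2 level (y axis) in each silenced (left) and control (right) array for the 12 tested carrier genes with the smallest p for silenced against control, with mean ± SD of 3 arrays beside the points and the marker shape giving the replicate number. The 2 groups lie apart for Slc25a26 and Slc25a12 and overlap for the other 10.

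Carriers of dicarboxylates, tricarboxylates and oxoacids link the citric acid cycle to the cytosol, and 3 of the 4 passed the filter. All 3 had a slightly higher mean in silenced arrays, by 0.024 to 0.126, and 0 were called. Without silenced replicate 1 the differences of Slc25a10 and Slc25a1 turned to -0.016 and -0.024. Slc25a10 encodes the dicarboxylate carrier that exchanges malate or succinate for phosphate. Its silenced array was higher within all 3 pairs, by 0.178, 0.175 and 0.0255. Replicate number held 86.7% of its sum of squares and the group 10.1%. It read 7.81 and 7.63 in the silenced and the control array numbered 1, against 7.44 and 7.27 for number 2 and 7.31 and 7.29 for number 3. Both arrays numbered 1 were its highest, by 0.39 ± 0.08 (SE), or 1.31-fold, with no call over all genes (F-test, adjusted p = 0.101). It was called after the stricter filter at the 60th percentile (adjusted p = 0.0234) and with a trended, robust variance (adjusted p = 0.0262). The citrate carrier gene Slc25a1 was also highest in both arrays numbered 1, by 0.15 ± 0.08 (SE), while the oxoglutarate/malate carrier gene Slc25a11 was lowest there, by -0.076 ± 0.079 (SE), less than its error. The oxodicarboxylate carrier gene Slc25a21 lay below the filter, at 2.28 to 2.39 in silenced and 2.43 to 2.45 in control arrays.

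Amino acid carriers numbered 9, of which 7 were tested and 0 called. On average 5 read higher and 2 lower in the silenced group. Slc25a12 encodes aralar, the aspartate/glutamate exchanger of muscle and brain and a step of the malate-aspartate shuttle. It read 10.19, 10.02 and 10.04 in silenced arrays, against 9.84, 9.95 and 9.99 in control arrays. The groups did not overlap, with silenced replicate 2 and control replicate 3 the closest values. The difference of 0.16 ± 0.09 (SE), or 1.12-fold, was not called (limma, adjusted p = 0.871), and it was 0.060 without both arrays numbered 1 and 0.10 without silenced replicate 1. The summed myotube markers were also higher in all 3 silenced arrays, as given above, and their part in this difference was not tested. Slc25a13, the paralogue citrin, read 4.23, 3.51 and 4.09 in silenced arrays, against 4.01, 3.92 and 4.17 in control arrays, close to the filter level and lowest in both arrays numbered 2. It was called by replicate number without control replicate 1 (F-test, adjusted p = 0.0203), with 1 array left for number 1.

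Slc25a38 carries glycine into the matrix for the first step of heme synthesis. It read 6.89, 6.66 and 6.84 in silenced arrays, against 6.65, 6.62 and 6.67 in control arrays. Silenced arrays 1 and 3 were high and array 2 lay within the control values. The difference of 0.15 ± 0.09 (SE) was not called (limma, adjusted p = 0.871). Slc25a29, a carrier of basic amino acids, read 5.24, 5.34 and 5.01 in silenced arrays, against 5.15, 5.06 and 4.95 in control arrays, higher in silenced arrays within each pair but overlapping between groups. The glutamate carrier gene Slc25a22, the branched-chain amino acid carrier gene Slc25a44 and the ornithine carrier gene Slc25a15 differed by 0.035, 0.021 and -0.0022. All 7 tested amino acid carriers had a higher mean in the arrays numbered 1, by 0.013 to 0.20, and 0 of them were called by the F-test (smallest adjusted p = 0.248). The glutamate carrier gene Slc25a18 and the ornithine carrier gene Slc25a2 lay below the filter.

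Of the carnitine/acylcarnitine carrier and its 3 listed relatives, 2 passed the filter and 0 were called. Slc25a20, which brings acylcarnitines into the matrix, read 7.85, 7.94 and 7.96 in silenced arrays, against 7.71, 7.70 and 7.93 in control arrays. It was higher in silenced arrays within all 3 pairs, by 0.14, 0.24 and 0.030, and control replicate 3 lay among the silenced values. Slc25a45 read 5.79, 5.97 and 5.77 in silenced arrays, against 5.59, 6.00 and 5.74 in control arrays, and both arrays numbered 2 were its highest. The liver carrier gene Slc25a47 read 3.83 to 3.89 in silenced and 3.72 to 4.01 in control arrays, with a mean just below the filter, and Slc25a48 read 3.35 to 3.71 and 3.34 to 3.73 in the same order.

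On the probe sets with the highest mean and with no covariate, carriers of nucleotides, vitamins and coenzymes held the lowest unadjusted p-values of the family for silenced against control. All 8 passed the filter. On average 2 read higher and 6 lower in the silenced group, and 0 were called (1 at an unadjusted p under 0.05). Slc25a26 imports S-adenosylmethionine, the methyl donor of the matrix. It read 4.22, 4.37 and 4.37 in silenced arrays, against 4.52, 4.69 and 4.59 in control arrays. All 3 silenced arrays were lower than all 3 control arrays, and the pairs differed by -0.31, -0.32 and -0.22 for numbers 1, 2 and 3. The difference of -0.28 ± 0.09 (SE), or 1.22-fold lower in silenced arrays, had an unadjusted p of 0.0134 in limma and 0.0073 when blocked on replicate number. The adjusted p was 0.871 over all tested genes, so it was not called, and over the alternatives it was 0.437 or more. Leaving out single arrays gave -0.32 to -0.23. The summed myotube markers, which moved the other way, were higher in all 3 silenced arrays, and their part in this difference was not tested.

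Slc25a32 carries folate and is also implicated in flavin transport. It read 7.67, 7.80 and 8.07 in silenced arrays, against 7.98, 8.18 and 8.22 in control arrays. Silenced replicate 3 lay above control replicate 1, so the groups overlapped, while all 3 pairs were lower in the silenced array, by -0.32, -0.37 and -0.15. The difference was -0.28 ± 0.12 (SE) with an unadjusted p of 0.0559 in limma, and 0.0116 when blocked on replicate number. A probe set that names both Dcaf13 and Slc25a32 read 8.47 ± 0.04 in silenced and 8.58 ± 0.04 in control arrays (SD, n = 3 each), and its reading cannot be assigned to either gene. Slc25a32 was also lower in the arrays numbered 1, by -0.24 ± 0.09 (SE), with no call (F-test, adjusted p = 0.235).

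Slc25a42 transports coenzyme A, and it read 5.34, 5.21 and 5.77 in silenced arrays, against 5.33, 5.33 and 5.16 in control arrays. Only silenced replicate 3 was high. Slc25a17, a carrier of the peroxisome rather than the mitochondrion, read 9.73, 9.60 and 9.64 in silenced arrays, against 9.56, 9.83 and 9.90 in control arrays, with pairs in both directions. Its difference was -0.108 with all arrays and -0.243 without both arrays numbered 1, and it was not called in either. The pyrimidine nucleotide carrier genes Slc25a33 and Slc25a36 differed between silenced and control arrays by 0.070 and -0.033, the NAD carrier gene Slc25a51 by -0.0032 (95% confidence interval -0.20 to 0.20), and Slc25a16, implicated in coenzyme A supply, by -0.063. Slc25a36 read 8.43 and 8.56 in the silenced and the control array numbered 1, against 8.72 and 8.61 for number 2 and 8.71 and 8.77 for number 3. It was lowest in both arrays numbered 1, as was Slc25a16. All 8 genes of this role had a lower mean in the arrays numbered 1, by -0.24 to -0.010, whereas all 7 tested amino acid carriers had a higher one. A lower mean in number 1 was found for 48.6% of all tested genes and for 22 of the 37 carriers. The difference between these roles was not tested.

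Iron and glutathione carriers supply heme and iron-sulfur cluster assembly and the redox balance of the matrix. All 4 passed the filter. On average 2 read higher and 2 lower in the silenced group, and 0 were called. Slc25a37, or mitoferrin 1, read 8.03, 7.98 and 8.18 in silenced arrays, against 7.80, 8.10 and 8.00 in control arrays. Slc25a28, or mitoferrin 2, read 6.09, 6.48 and 6.32 in silenced arrays, against 6.60, 6.29 and 6.19 in control arrays. Both mitoferrins overlapped between groups, and the pair of Slc25a28 numbered 1 went the other way (-0.51) from those numbered 2 and 3 (0.19 and 0.13). With all arrays its difference was -0.062, and it was 0.16 without both arrays numbered 1, 0.041 without silenced replicate 1 and 0.058 without control replicate 1.

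Slc25a39 imports glutathione, and it read 9.21, 9.30 and 9.10 in silenced arrays, against 9.05, 9.21 and 9.00 in control arrays. Its silenced array was higher within every pair, by 0.16, 0.089 and 0.097, and its groups overlapped (limma, adjusted p = 0.878). The paralogue Slc25a40 read 6.54, 6.62 and 6.84 in silenced arrays, against 6.56, 6.77 and 6.89 in control arrays. It was lowest in both arrays numbered 1, by -0.23 ± 0.08 (SE), with no call (F-test, adjusted p = 0.201). The 2 probe sets that name Slc25a40 disagreed, and on the other one the arrays numbered 1 differed by -0.041. The one with the lower mean read 6.45, 6.37 and 6.41 in silenced arrays, against 6.64, 6.68 and 6.87 in control arrays. There all silenced arrays lay below all control arrays, with a difference of -0.32 in place of -0.073, and it too was not called. Over the alternatives, both probe sets included, the smallest limma p of Slc25a40 was 0.00911 unadjusted and 0.708 adjusted. Of the other carriers with several probe sets, Slc25a36 had differences of -0.033 and 0.056 and Slc25a46 of -0.021 and -0.099.

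Uncoupling proteins and their relatives held 5 members, of which 4 passed the filter, and 3 of these read lowest in both arrays numbered 1, beside 15.3% of all tested genes. Ucp3, the skeletal muscle form, read 3.71 and 3.44 in the silenced and the control array numbered 1, against 4.08 and 4.13 for number 2 and 4.51 and 4.39 for number 3. Both arrays numbered 1 were the lowest and both numbered 3 the highest, and within a number the silenced and control arrays lay within 0.273 of each other. The fitted difference of the arrays numbered 1 was -0.70 ± 0.09 (SE), a size set against readings below the filter, and those numbered 2 differed from those numbered 3 by -0.35 ± 0.11 (SE). Replicate number held 94.5% of the sum of squares of Ucp3 and the group 2.27%, and its silenced minus control difference was 0.11 (limma, 95% confidence interval -0.54 to 0.77, adjusted p = 0.963; interval -0.10 to 0.33 when blocked on replicate number). The call of Ucp3 by the F-test (adjusted p = 0.0292) was lost without silenced replicate 3 (0.181), without control replicate 3 (0.160), without both arrays numbered 1 (0.149) and with no filter on dim genes (0.0733). It was not tested under the filter at the 60th percentile. Of the fibroblast markers all 6 tested also had a lower mean in the arrays numbered 1. Their summed level was 12.82 in both against 13.09 to 13.16 in the other 4, and Lum and Dcn of that list were called by the same F-test. Lum read 3.534 and 3.765 in the silenced and the control array numbered 1 and 3.812 in silenced array 2, below the filter level. Like Ucp3, it passed the filter through its other arrays, and the size of its difference is set against readings below the filter. The myotube markers had 6 lower and 6 higher means in the arrays numbered 1, with a summed level of 14.71 to 14.78 against 14.69 to 14.92. Of these markers Myh4 was called, lower in number 1 by -0.36 ± 0.08 (SE) (F-test, adjusted p = 0.0345). Both arrays numbered 3 were its highest, as for Ucp3. The macrophage list summed to 5.38 to 5.82 in the arrays numbered 1, against 5.84 to 6.00 in the other 4. Only Cd68 of that list passed the filter. It read 5.19 in silenced and 4.40 in control array 1, against 5.11 to 5.46 in the other 4. The undifferentiated myoblast list summed to 11.19 to 11.23 in the arrays numbered 1, against 11.02 to 11.19. Of its 5 tested genes 3 had a lower and 2 a higher mean there, with Mki67 higher by 0.49 and not called (F-test, adjusted p = 0.0551). The part of these markers in the Ucp3 result was not tested.

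Slc25a30, also known as KMCP1, is a relative of the uncoupling proteins first described in kidney. It read 8.05 and 8.14 in the silenced and the control array numbered 1, against 8.54 and 8.57 for number 2 and 8.28 and 8.33 for number 3. Its order of numbers was not that of Ucp3, since both arrays numbered 2 were highest. The arrays numbered 1 were lower by -0.33 ± 0.08 (SE), or 1.26-fold, with an adjusted p of 0.0874 in the F-test, and the number held 96.9% of its sum of squares. It was called with a trended, robust variance (adjusted p = 0.00949) and after the filter at the 60th percentile (adjusted p = 0.0179). Slc25a27, or UCP4, known from brain, read 4.86 and 5.13 in the silenced and the control array numbered 1, against 5.27 and 5.31 for number 2 and 5.53 and 5.42 for number 3. It was lower in number 1 by -0.39 ± 0.10 (SE), with no call (F-test, adjusted p = 0.143), and it was called without control replicate 1 (adjusted p = 0.0266), a fit in which number 1 has 1 array that is assumed to vary like the others. Slc25a14, or UCP5, did not follow these 3: its arrays numbered 1 differed by 0.061 ± 0.076 (SE), and it read lower in the silenced array of each pair, by -0.048, -0.050 and -0.094. The proton leak protein gene Ucp1 read 2.33, 2.57 and 2.58 in silenced arrays, against 2.50, 2.53 and 2.53 in control arrays, below the filter in every array, as were all 7 adipocyte markers by their means.

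**Figure D4:**
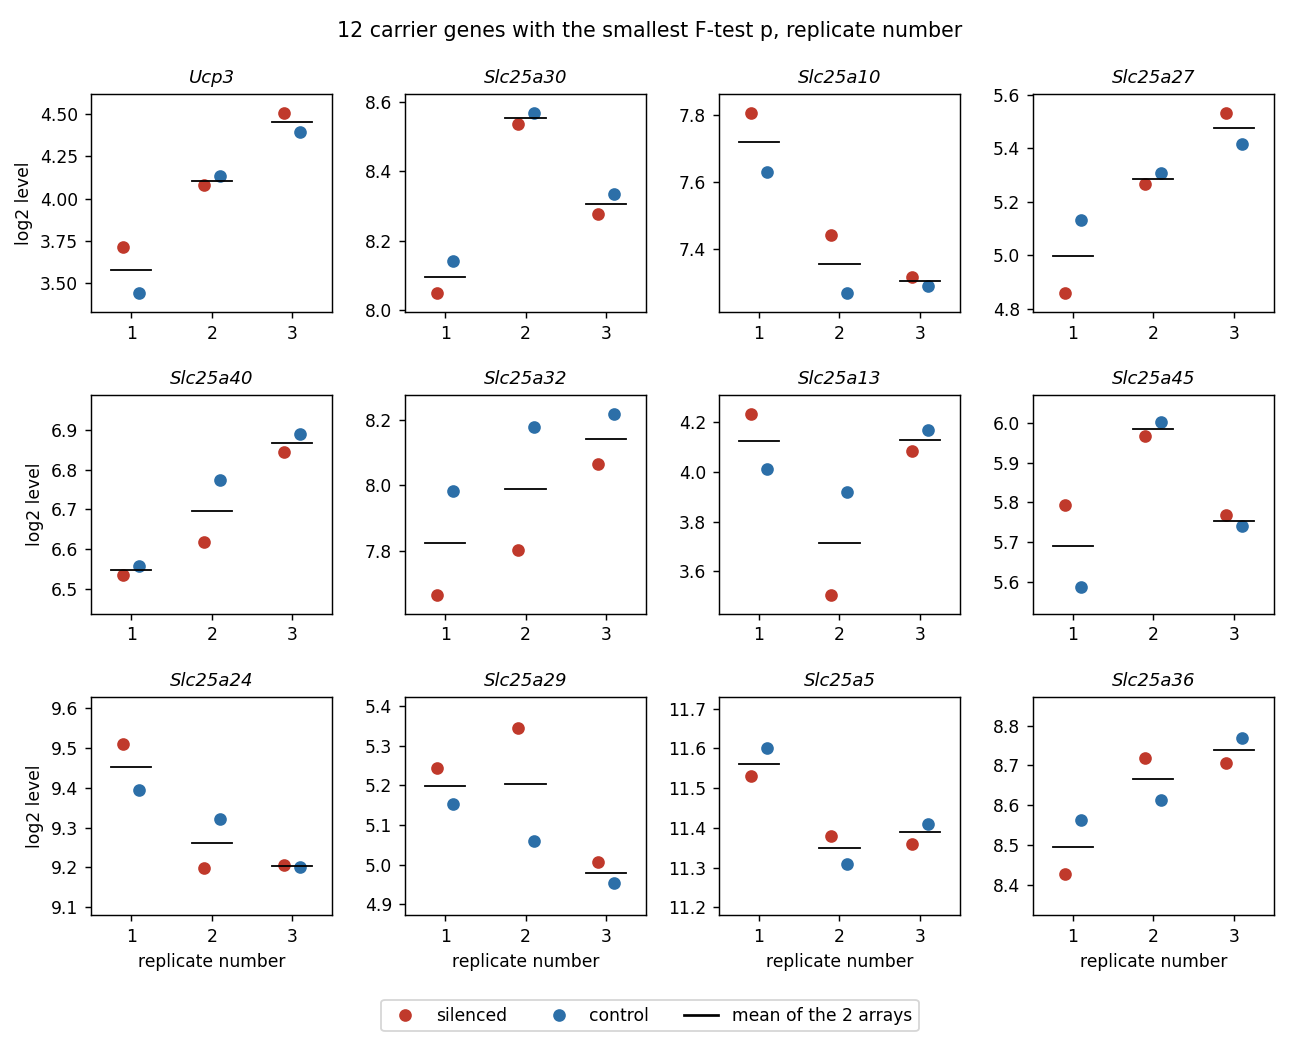
Log2 level (y axis) by replicate number (x axis) in silenced (red, left) and control (blue, right) arrays for the 12 tested carrier genes with the smallest F-test p for replicate number; black lines are means of the 2 arrays. Both arrays numbered 1 are lowest for Ucp3, Slc25a30, Slc25a27, Slc25a40 and Slc25a36 and highest for Slc25a10, Slc25a24 and Slc25a5.

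The promoter of Ucp3 is shown because Ucp3 was the carrier called by replicate number, with those of Slc25a30 and Slc25a10, the next 2 by F-test p, for comparison. Each runs from 250 bases before to 50 after the start of the gene in RefSeq, build GRCm38.p6, and lies at chr7:100472741-100473040 on the plus strand for Ucp3, chr14:75786988-75787287 on the minus strand for Slc25a30 and chr11:120491587-120491886 on the plus strand for Slc25a10. Capitals mark matches, on either strand, to CAGCTG (a form of the E-box bound by myogenic factors), AGGTCA (the half-site of nuclear receptors), CCAAT (the box bound by NF-Y) and the NRF1 motif (GCGC, any base, TGCGC).
Ucp3: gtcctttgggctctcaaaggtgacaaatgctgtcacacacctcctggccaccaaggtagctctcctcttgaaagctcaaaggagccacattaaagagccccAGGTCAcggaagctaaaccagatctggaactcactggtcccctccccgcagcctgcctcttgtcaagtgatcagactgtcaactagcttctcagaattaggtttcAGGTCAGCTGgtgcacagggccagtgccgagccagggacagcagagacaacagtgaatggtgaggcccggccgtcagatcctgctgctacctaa
Slc25a30: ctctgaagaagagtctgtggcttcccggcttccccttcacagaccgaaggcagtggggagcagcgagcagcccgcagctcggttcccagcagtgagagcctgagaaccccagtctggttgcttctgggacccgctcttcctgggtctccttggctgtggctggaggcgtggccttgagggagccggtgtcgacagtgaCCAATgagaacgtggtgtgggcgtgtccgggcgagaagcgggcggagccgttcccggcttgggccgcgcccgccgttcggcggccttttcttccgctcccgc
Slc25a10: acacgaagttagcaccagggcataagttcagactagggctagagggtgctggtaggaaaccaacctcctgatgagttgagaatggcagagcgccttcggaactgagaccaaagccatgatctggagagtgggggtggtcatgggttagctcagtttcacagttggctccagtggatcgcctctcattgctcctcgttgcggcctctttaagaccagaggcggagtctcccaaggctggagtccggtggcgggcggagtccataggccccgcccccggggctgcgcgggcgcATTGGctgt

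In the Ucp3 promoter there were 2 matches to AGGTCA and 1 to CAGCTG, which starts 40 bases before the gene start and shares 2 letters with the nearer AGGTCA, 44 bases before it. The Slc25a30 and Slc25a10 promoters held 1 CCAAT each, the second on the opposite strand, and none of the other 3 motifs. Of the 32851 promoters in the table, 16.3% held CAGCTG, 16.3% AGGTCA, 37.4% CCAAT and 4.6% the NRF1 motif. Of the 48 carriers 38 were read, some with several promoters, and of their 48 promoters 6 held CAGCTG, 6 AGGTCA, 22 CCAAT and 2 the NRF1 motif. The carrier set left out any promoter on chr18, which the whole table kept. A match describes the letters and is not a binding site.

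**Figure D5:**
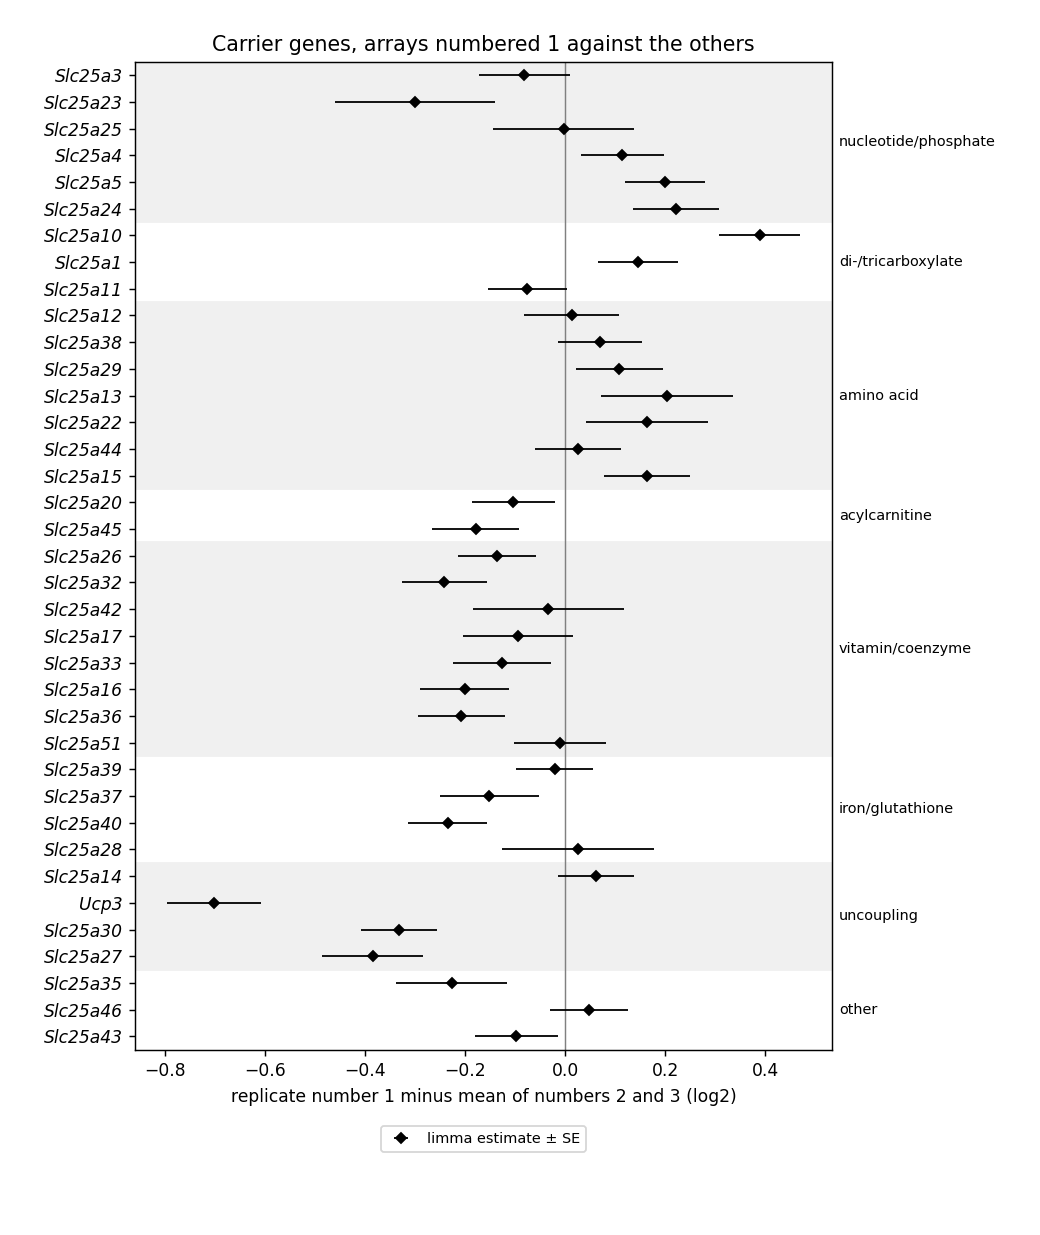
Mean of the arrays numbered 1 minus the mean of those numbered 2 and 3 (log2, x axis) for the 37 tested carrier genes, grouped by role, as limma estimates ± SE. All 8 vitamin and coenzyme carriers lie left of 0 and all 7 amino acid carriers right of it. Of these, Slc25a51, Slc25a42, Slc25a17, Slc25a12, Slc25a44 and Slc25a38 have an estimate smaller than its SE, and the difference between the roles was not tested. Ucp3, whose arrays numbered 1 read below the filter level of 3.87, has a fitted value of -0.70.

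The remaining carriers have no firmly assigned substrate or another role. Slc25a46, which acts in mitochondrial fission and lipid exchange at the outer membrane, differed by -0.021 (95% confidence interval -0.20 to 0.16). It read 8.88 to 8.91 in silenced and 8.84 to 8.97 in control arrays. Its range of 0.133 was the smallest of the tested carriers, beside 0.134 for Slc25a11. Its other probe set, with the lower mean, read 5.097 to 5.245 in silenced and 5.266 to 5.314 in control arrays. Slc25a35 and Slc25a43 differed by -0.038 and -0.0081 and were lowest in both arrays numbered 1, by -0.23 ± 0.11 (SE) and -0.098 ± 0.083 (SE), with no call. Slc25a34 and Slc25a53 lay below the filter, at 3.04 to 3.37 and 2.39 to 3.08 in silenced and 2.91 to 3.11 and 2.46 to 2.92 in control arrays.

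Genes of connected pathways were read from 6 lists, with no gene called for silenced against control. The list genes named for this comparison are those with the smallest limma p of their list and are not typical of it. Beside the counts of direction, 47.3% of all tested genes had a lower mean in silenced arrays. Of 11 tested inner membrane transporters outside the symbol rule, 5 had a higher and 6 a lower mean, among them the sideroflexin gene Sfxn2 with 0.36 ± 0.14 (SE), the inner membrane protein gene Letm1 with 0.18 ± 0.08 (SE) and the pyruvate carrier gene Mpc1 with -0.10 ± 0.08 (SE). Of 6 shuttle enzymes 4 were higher and 2 lower, with the malate dehydrogenase gene Mdh1 at -0.19 ± 0.10 (SE), and of 4 carnitine shuttle enzymes all had a higher mean, with Cpt2 at 0.14 ± 0.10 (SE). Slc25a20 lay in the same direction as these 4, at 0.14, and none passed the test. Of 6 energy transfer kinases 4 were higher and 2 lower, with the creatine kinase gene Ckb at 0.22 ± 0.10 (SE). Of 7 heme and iron-sulfur enzymes 4 were higher and 3 lower, with Alas1, the enzyme that uses the glycine Slc25a38 brings in, at 0.27 ± 0.10 (SE), and of 6 NAD and CoA enzymes 1 was higher and 5 lower, with Nampt at -0.27 ± 0.11 (SE). By replicate number 2 of the 40 genes tested over these lists were called (5%, beside 3.12% of all tested genes), named here after their values were seen: the adenylate kinase gene Ak4, higher in number 1 by 1.61 (F-test, adjusted p = 0.0307), and the coproporphyrinogen oxidase gene Cpox, lower by -0.65 (F-test, adjusted p = 0.0322).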

How the data were processed

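Gene expression was measured on 6 one-colour Affymetrix whole-transcript arrays, 3 silenced and 3 control. The deposited table holds log2 values for 35556 probe sets, made by the authors with RMA, as listed per the submitters' processing notes, and the software version is not given in the sources used here. The values were used as deposited. The number of arrays limits the precision.

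Names came from the platform annotation, in which 21218 probe sets name 1 gene, and 21185 of these matched the RefSeq table (GRCm38.p6) by Entrez identifier. The probe set with the highest mean was kept per gene (18820 genes), and the 11292 genes with a mean above the 40th percentile were tested. The group comparison used a 2-sided limma fit (3.58.1, under R 4.3.3) with eBayes, no covariate and Benjamini-Hochberg adjustment over all tested genes at 0.05, and replicate numbers were compared by limma's F-test with the group as covariate. The fits were tested on simulated data with independent noise per array and shifts of 1 on the log2 scale. Those data lack scatter shared by same-numbered arrays, and the shifts exceed every carrier difference between groups here. In the deposited values, after removal of group means, arrays sharing a number correlated at 0.55, 0.35 and 0.42, and 6 of 6 arrays correlated best with their own number in the other group. Removal of group means ties the arrays of a group to each other, so these 6 matches are not independent. On these correlations, the numbers were treated as pairing arrays in the blocked fit and in the differences within same-numbered pairs. That choice rests on the data and not on a label. The main group fit did not use this pairing, so scatter shared by same-numbered arrays stays in its errors. The members, roles, lists and contrasts were chosen with earlier results of these data known. Values per array are given for the 12 tested members with the smallest p in each comparison and for a preset panel of ADP/ATP, phosphate, acylcarnitine, aspartate/glutamate, iron and uncoupling carriers.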

Additional observations from a re-analysis of the deposited data

How the results depend on the processing

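For silenced against control, 0 genes and 0 carriers were called under every alternative run with an adjusted threshold: highest-variance probe sets, no filter, a filter at the 60th percentile, repeated quantile normalization, median centring, a trended and robust variance, an adjusted p under 0.1, the replicate number as a fixed or random replicate block (0 genes each), without both arrays numbered 1, and leaving out each array in turn (0 to 0). An unadjusted p under 0.05 gave 542 genes and 1 carrier. With the replicate block no call of a carrier changed. Among the 337 recomputed differences under settings that can move the estimate (arrays left out, another scaling or another probe set), 51 changed sign, in 22 of 37 carriers, 47 of them among the 259 with arrays left out. The other 15 carriers kept their sign, among them Slc25a26, Slc25a32, Slc25a3 and Slc25a12.

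By replicate number 352 genes and 1 carrier were called, and the cause of the changes below was not tested. The counts were 824 and 2 at an adjusted p under 0.1, 2305 and 6 at an unadjusted p under 0.05, 1090 and 3 with a trended, robust variance, 847 and 2 with the filter at the 60th percentile, 58 and 0 with no filter, and 98 and 0 without both arrays numbered 1. Leaving out 1 array, which leaves its number with a single array assumed to vary like the others, gave 17 to 1070 genes and 0 to 3 carriers: 17 genes and 0 carriers without silenced or control replicate 3, 1070 and 3 without control replicate 1, 884 and 2 without silenced replicate 1 and 229 and 1 without silenced replicate 2. Dim carriers limit what could be seen: 11 of 48 were not tested.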
